A study of Arabidopsis thaliana with 12 samples.

Results

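The 6 genes described here are nuclear genes of Arabidopsis thaliana that encode proteins of the plastid ribosome. They were chosen by locus, at a time when earlier results of these data were known. Those of the large subunit are AT4G01310 (RPL5), AT3G54210 (RPL17), AT5G65220 (RPL29) and AT1G29070 (RPL34). Those of the small subunit are AT3G13120 (RPS10) and AT1G64510 (RPS6). Each is paired by the platform annotation with 1 probe, and that probe with no other gene. They are 6 of the 691 genes that the array measures under a single gene name, through 692 of its 3439 probes. Transcript levels were measured in total RNA of wild-type plants, ecotype Columbia 0, on 12 arrays, 6 in a group. The pStau plants spent their first 4 h in water and the next 4 h in staurosporine, given in the labels as 25 mM at pH 5.5. The H2O plants stood in water for all 8 h. Staurosporine inhibits many protein kinases. The labels give neither the age of the plants nor the tissue, and do not say whether the arrays of a group stem from different plants. The p-values therefore reflect how far these arrays spread, which may be technical variation.

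Plastids keep a ribosome of the bacterial type, with a large and a small subunit, which translates the messages of the plastid genome, among them those of the photosystem cores and of the large subunit of Rubisco. Some of its proteins are encoded in the plastid, and the others in the nucleus, from where they are made in the cytosol and imported. The supply of these imported proteins links plastid translation to nuclear gene expression, and in green tissue it is high while chloroplasts are being built.

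The array values are intensities that run from 0 to 100 and were taken as linear. Array medians were 0.169 to 0.392 in pStau and 0.405 to 0.485 in H2O, and 12.3% to 17.3% of values were exactly 0 in pStau, against 11.5% to 13.1% in H2O. The arrays were therefore quantile normalized on their positive values before testing. Arrays fall into 3 sets in each group, numbers 1 and 2, 3 and 4, and 5 and 6. Every one of the 12 arrays correlated best, among the arrays of its own group, with the other array of its set. Tests over 12 arrays count such neighbours as separate samples. The calls of RPL5, RPL17 and RPL34 are therefore also given with the set as the unit. Of a list of 41 nuclear genes of plastid ribosomal proteins, these 6 were measured and 0 others were found on probes shared by several genes. In a second list of 21 plastid translation and RNA factors, 4 probes shared by several genes were not used, and the single gene with a probe of its own, AT5G55220, the plastid trigger factor, was listed at 0 on all 12 arrays and could not be tested. As a sign of green tissue, LHB1B2, a chlorophyll-binding antenna protein, had intensities of 1.04 to 1.45 in pStau and 1.37 to 2.97 in H2O. Of a list of 12 green-tissue genes it alone had a probe of its own, and it was itself lower in pStau, with a log2 change of -0.84 (adjusted p = 0.00808 in limma, 6 arrays per group), and its part in the falls of the ribosomal genes was not tested. No root marker of the list was measured.

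At an adjusted p under 0.05 in limma, 3 of the 6 genes fell with staurosporine and 3 did not pass. Over all 3256 probes tested, 35.3% passed in either direction and 18.8% were lower in pStau. Of the 652 tested probes that carry 1 gene, as those of the 6 genes do, 145 were lower and 95 higher. The 3 that fell, RPL5, RPL17 and RPL34, are all of the large subunit, where RPL29 did not pass. Neither RPS10 nor RPS6 of the small subunit passed. In total RNA of plants, fewer cells of a type and less of a transcript in each cell cannot be told apart. The median log2 change was -0.30 over the 6 genes, -0.44 over the 4 large-subunit genes and 0.03 over the 2 small-subunit genes, against -0.0041 over all probes tested. Over the 652 tested probes with 1 gene the median was -0.067. The medians of both subunits hold a gene whose arrays at 0 were set to a floor. With consecutive arrays as a random block 1 of the 6 genes, RPL34, passed, and with consecutive arrays averaged 0 passed, out of 3 probes that passed in all.

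**Figure D1:**
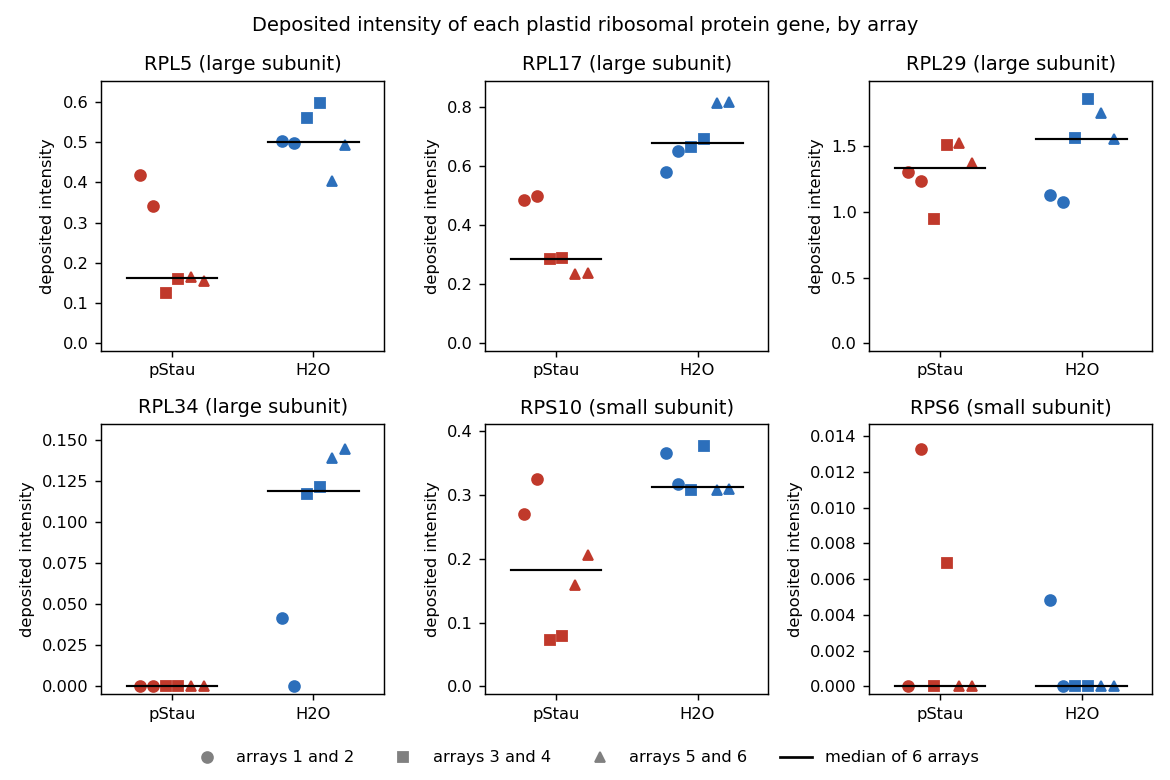
Deposited intensity (linear, no stated unit) of the 6 genes on each of the 6 pStau and 6 H2O arrays, with the array set shown by the symbol and the median of a group by a line. RPL17 lay between 0.234 and 0.497 on pStau arrays, all below the 0.579 to 0.816 of H2O arrays, and RPL34 was at 0 on all 6 pStau arrays.

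RPL34, a small protein that binds the ribosomal RNA of the large subunit, was listed at 0 on all 6 pStau arrays. On H2O arrays its intensity was 0 on array 2, 0.0413 on array 1, 0.117 and 0.121 on arrays 3 and 4, and 0.139 and 0.145 on arrays 5 and 6. The groups thus share a value at H2O array 2 alone. No fold is given against a group at 0. The counts of arrays at 0, 6 of 6 against 1 of 6, gave p = 0.0152 in a two-sided Fisher's exact test (n = 6 per group). That test counts the arrays of a set as separate samples and was not run on sets. The fit over all probes gave a limma adjusted p of 0.00677 (n = 6 per group). Of the 3256 probes tested, 5 (0.154%) were at 0 on all pStau arrays and on at most 1 H2O array, and 3 of those 5 carry a single gene, RPL34 among them. This pattern was taken from RPL34, which meets it by definition. The 81.1% of probes above 0 on every array cannot meet it, so the share is no measure of how unusual RPL34 is.

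RPL34 was a dim probe in H2O as well, at the 5.79th to 21.0th percentile of its array. The pStau arrays also held more zeros, and the part of this in the result for RPL34 was not tested. In H2O it was lowest in the set of arrays 1 and 2, which had 1 of its 2 arrays at 0. Its call held when any 1 array was left out (limma adjusted p of 0.000359 to 0.0166) and with the set as a random block (adjusted p = 0.0349). The call ended with consecutive arrays averaged (adjusted p = 0.143, n = 3 per group, limma), without arrays 3 and 4 of both groups (0.106) and without arrays 5 and 6 of both groups (0.117). The log2 change that the floor gave was -1.83, and -0.31 with a floor at the 5th percentile in place of the 1st, so its size is not interpretable.

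RPL17 is a protein of the large subunit that in bacteria lies at the exit of the tunnel through which the new chain leaves. Its deposited intensity had a lowest value of 0.234, a median of 0.287 and a highest value of 0.497 on pStau arrays, and of 0.579, 0.677 and 0.816 on H2O arrays. The groups did not overlap as deposited, which was so, in the same direction, for 20.2% of all probes. After normalization the values were 0.364, 0.453 and 0.495 in pStau against 0.454, 0.625 and 0.690 in H2O, and the groups overlapped at H2O array 1. There RPL17 fell 1.36-fold (log2 change -0.45, 95% interval -0.73 to -0.16, limma adjusted p = 0.0207, n = 6 per group), and lay lower in pStau in 6 of 6 array numbers. At number 1 the log2 difference was only -0.022. How many of all probes lay lower in every number was not counted here.

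The size of the fall of RPL17 differed between sets, with log2 changes of -0.09 in the first (arrays 1 and 2), -0.34 in the second and -0.91 in the third (arrays 5 and 6). The 2 arrays of a set were close for this gene, on average 0.017 apart on the log2 scale in pStau and 0.077 in H2O, while the set means had an SD of 0.22 in pStau and 0.27 in H2O. The adjusted p of RPL17 was 0.0536 with a block for the replicate number and 0.0570 with a random block for the set. Leaving out number 5 or number 6 of both groups ended the call (adjusted p = 0.0877 and 0.0868), as did leaving out arrays 3 and 4 (0.0887) or arrays 5 and 6 (0.254, log2 change -0.21) of both groups. No single array did so on its own, with adjusted p between 0.00918 and 0.0452. Without arrays 1 and 2 of both groups the call held (limma adjusted p = 0.00825, log2 change -0.63). With consecutive arrays averaged the adjusted p was 0.223 (limma, n = 3 per group).

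RPL5 in bacteria binds the smallest ribosomal RNA and helps to place it in the large subunit. On pStau arrays 1 and 2 its deposited intensity was 0.418 and 0.340, and on pStau arrays 3 to 6 it was 0.125 to 0.166. On H2O arrays it had a lowest value of 0.404, a median of 0.500 and a highest value of 0.598. The groups overlapped at 1 array each, pStau array 1 and H2O array 5. After normalization the values were 0.260, 0.294 and 0.383 in pStau against 0.298, 0.388 and 0.540 in H2O, and the overlap was wider. There pStau arrays 1, 2 and 4 lay above H2O array 5, and pStau array 1 also above H2O array 6. On these values RPL5 fell 1.36-fold (log2 change -0.44, 95% interval -0.77 to -0.11, limma adjusted p = 0.0425, n = 6 per group). It was lower in pStau in 6 of 6 array numbers, with a log2 difference of -0.026 at number 1.

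The log2 changes of RPL5 in the 3 sets were -0.17, -0.83 and -0.32, so RPL5 differed most in arrays 3 and 4, and RPL17 in arrays 5 and 6. The call of RPL5 was the least stable of the 3 over the arrays. It held without pStau array 1 (adjusted p = 0.0225) and without H2O array 5 (0.0178), the arrays at which the groups overlapped as deposited. It ended without any 1 of the other 10, with adjusted p up to 0.0883. Leaving out array sets in turn gave adjusted p of 0.0566, 0.280 and 0.0728, and the log2 change without arrays 3 and 4 of both groups was -0.24. In limma its adjusted p was 0.167 with the set as a random block and 0.252 with consecutive arrays averaged. With an exact permutation test of the difference in means, adjusted over all probes, it was 0.0651.

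RPL29 in bacteria sits at the tunnel exit beside the docking site of trigger factor. Its deposited intensity was 0.948 at the lowest, 1.34 at the median and 1.52 at the highest on pStau arrays, and 1.07, 1.56 and 1.86 on H2O arrays. The groups overlapped over most of their range. The lowest H2O values were those of arrays 1 and 2, at 1.13 and 1.07, below both pStau arrays of the same numbers, at 1.30 and 1.24. After normalization the log2 change of RPL29 was -0.16 (95% interval -0.64 to 0.32, limma adjusted p = 0.608, n = 6 per group), with 0.33, -0.43 and -0.37 in the 3 sets. Without arrays 1 and 2 of both groups the log2 change was -0.40 and passed (adjusted p = 0.0409). In that fit 1335 of the 3256 probes tested passed.

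RPS10 lies in the head of the small subunit, and in Escherichia coli the same protein also takes part in transcription antitermination. Its deposited intensity had a lowest value of 0.0727, a median of 0.182 and a highest value of 0.325 on pStau arrays, and of 0.307, 0.313 and 0.376 on H2O arrays. As deposited only pStau array 2 reached the range of the H2O arrays. After normalization both groups had almost the same median, 0.254 in pStau and 0.253 in H2O, and the log2 change was -0.06 (95% interval -0.44 to 0.32, limma adjusted p = 0.815, n = 6 per group). The sets differed in sign for RPS10, at 0.07, -0.70 and 0.44, and pStau was lower in 3 of 6 array numbers.

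RPS6 forms a pair with S18 on the platform of the small subunit in bacteria. Its probe read 0 on 4 of 6 pStau arrays and 5 of 6 H2O arrays. The values above 0 were 0.0133 and 0.00692 on pStau arrays 2 and 4, and 0.00485 on H2O array 1. The counts of arrays at 0 did not differ detectably (p = 1, two-sided Fisher's exact test, n = 6 per group). Both groups lay at or near the floor of detection, so no fold is given for RPS6, and the 2 small-subunit genes amount to 1 with a measurable level on every array.

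**Figure D2:**
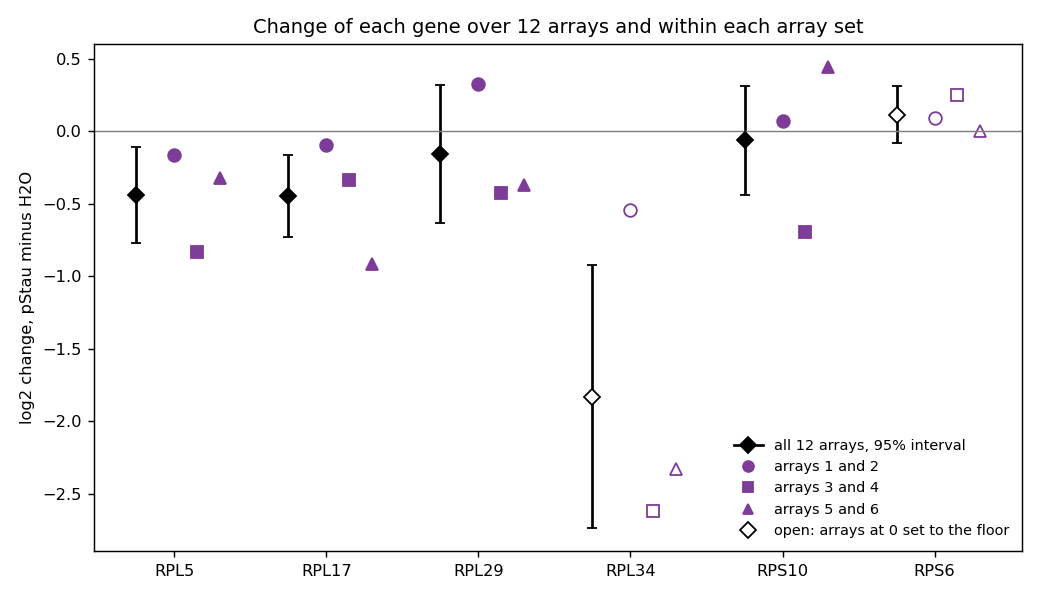
Log2 change, pStau minus H2O, of normalized values for each gene, over all 12 arrays with its 95% interval from limma (diamonds) and within each of the 3 array sets (other symbols); open symbols mark RPL34 and RPS6, whose arrays at 0 were set to a floor. RPL5 and RPL17 were below 0 in all 3 sets, while RPL29 and RPS10 had sets on both sides of 0.

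**Figure D3:**
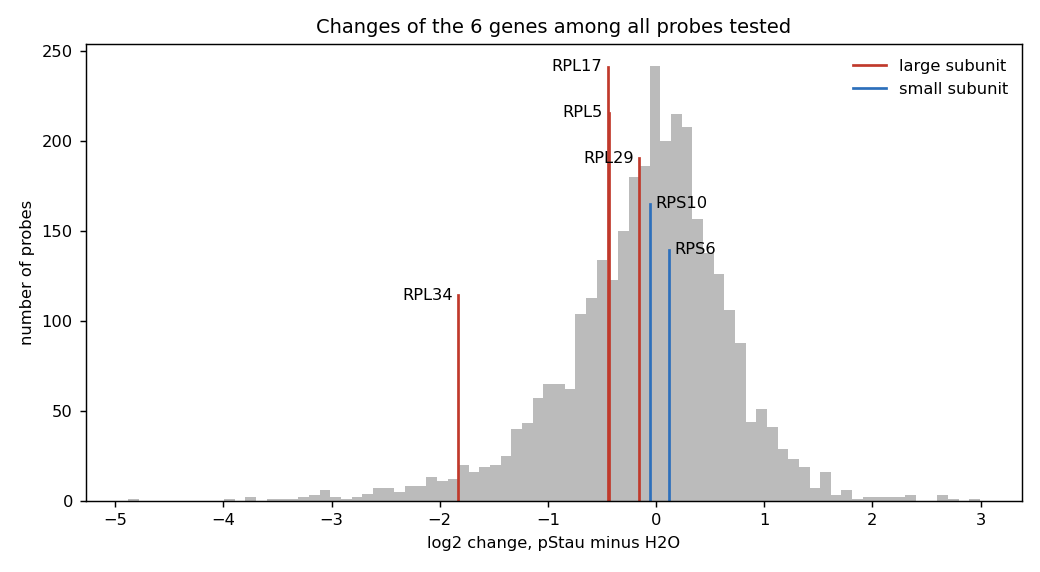
Number of probes (vertical axis) by log2 change, pStau minus H2O (horizontal axis), for all 3256 probes tested, with the 6 genes marked by lines whose height has no meaning. RPL34 stands at the 3.01st percentile of the changes, RPL17 and RPL5 at the 27.2nd and 27.4th, RPL29 at the 41.0th, RPS10 at the 46.5th and RPS6 at the 58.3rd. The places of RPL34 and RPS6 depend on the floor given to zeros.

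Among all probes tested, the changes of RPL17 and RPL5 lay below the middle of the distribution but not at its edge, as the plot of all changes shows: 27.2% of probes had a change as low as that of RPL17 or lower, and 27.4% for RPL5. RPL34, at the floor in pStau, stood at 3.01%. That place depends on the floor, as its log2 change of -1.83 became -0.31 with a floor at the 5th percentile. RPL29 stood at 41.0% and RPS10 at 46.5%, near the middle. Among the tested probes with 1 gene alone, RPL17 stood at 32.2%, RPL5 at 32.5%, RPL29 at 44.8% and RPS10 at 50.6%.

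The question of whether large- and small-subunit genes changed unequally was put to ratios within an array, over the 4 genes above 0 on every array, RPL5, RPL17, RPL29 and RPS10. Of the 3256 probes tested, 81.1% were above 0 on every array. On normalized values, the log2 ratio of RPL5 over RPS10 averaged 0.30 ± 0.45 in pStau and 0.68 ± 0.18 in H2O (SD, n = 6 each), a difference of -0.38 (95% interval -0.85 to 0.08, p = 0.0952 in a two-sided exact permutation test, adjusted p = 0.355 over 6 pairs). That ratio was lower in pStau in 4 of 6 array numbers. The ratio of RPL17 over RPS10 averaged 0.83 ± 0.53 in pStau and 1.22 ± 0.38 in H2O (SD, n = 6 each), a difference of -0.39 (95% interval -1.0 to 0.23, exact permutation p = 0.177, adjusted p = 0.355), and was lower in 3 of 6 numbers. In the 3 sets RPL17 over RPS10 differed by -0.16, 0.36 and -1.36. The ratio of RPL29 over RPS10 differed by -0.10 (95% interval -0.74 to 0.55, exact permutation p = 0.742, adjusted p = 0.891). None of these 3 ratios of a large-subunit gene to RPS10 passed. That the falls passed in the large subunit alone is therefore not shown to be a difference between the subunits.

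**Figure D4:**
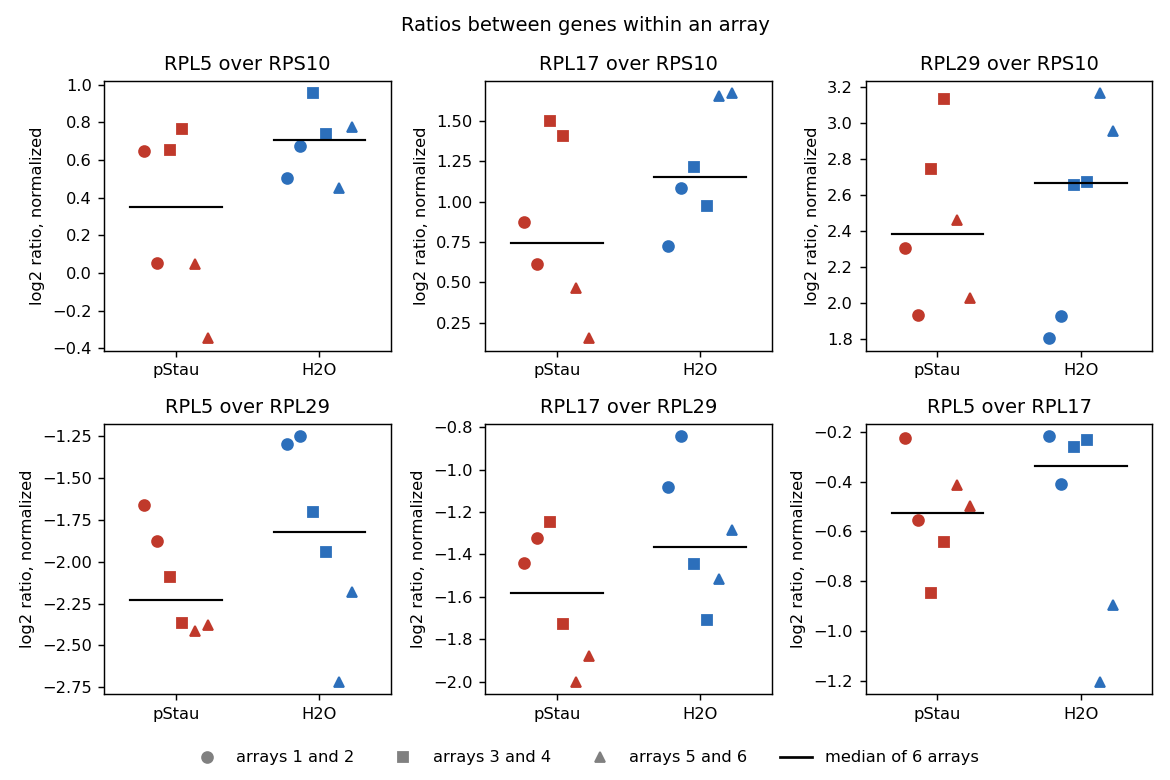
Log2 ratio of normalized values between 2 genes on the same array, for the 6 pairs of RPL5, RPL17, RPL29 and RPS10, with pStau left of H2O, symbols for the array set and a line at the median. The groups overlap in all 6 panels, and arrays 5 and 6 of pStau hold the lowest RPL5 and RPL17 values over RPS10.

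Within the large subunit, the ratio of RPL5 over RPL17 differed between groups by 0.0076 on normalized values (95% interval -0.39 to 0.41, exact permutation p = 0.972, adjusted p = 0.972), although its set values of -0.08, -0.50 and 0.59 spread widely. RPL5 over RPL29 differed by -0.28 (95% interval -0.87 to 0.30, exact permutation p = 0.297, adjusted p = 0.445) and RPL17 over RPL29 by -0.29 (95% interval -0.69 to 0.11, exact permutation p = 0.145, adjusted p = 0.355). As deposited, where a ratio does not depend on any linear scaling of an array, RPL17 over RPL29 averaged -2.01 ± 0.60 in pStau and -1.06 ± 0.25 in H2O on the log2 scale (SD, n = 6 each). That is a difference of -0.95 (exact permutation p = 0.00649, adjusted p = 0.0390), with pStau lower in 6 of 6 numbers and in all 3 sets, at -0.52, -0.73 and -1.60. RPL5 over RPL29 as deposited averaged -2.67 ± 0.72 in pStau and -1.53 ± 0.37 in H2O (SD, n = 6 each), a difference of -1.14 (exact permutation p = 0.0152, adjusted p = 0.0455), again lower in 6 of 6 numbers. With the sets averaged, 3 values per group, the exact permutation p was 0.1 for RPL17 over RPL29, the smallest such a design can give, and 0.2 for RPL5 over RPL29.

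RPL29 thus kept a higher deposited intensity relative to RPL5 and RPL17 on pStau arrays, and quantile normalization, which is not linear, removed most of that difference. RPL29 is a bright probe, at the 86.7th to 92.5th percentile of pStau arrays and the 81.6th to 94.0th of H2O arrays, while RPL5 and RPL17 stood between the 39.6th and 64.0th percentile of pStau arrays and between the 42.9th and 73.6th of H2O arrays. The part of brightness in these deposited ratios was not tested. RPL29 over RPS10 as deposited differed by 0.88 (exact permutation p = 0.0519, adjusted p = 0.104) and was lower in pStau in 0 of 6 numbers, and RPL17 over RPS10 differed by -0.07 (exact permutation p = 0.818, adjusted p = 0.818).

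**Figure D5:**
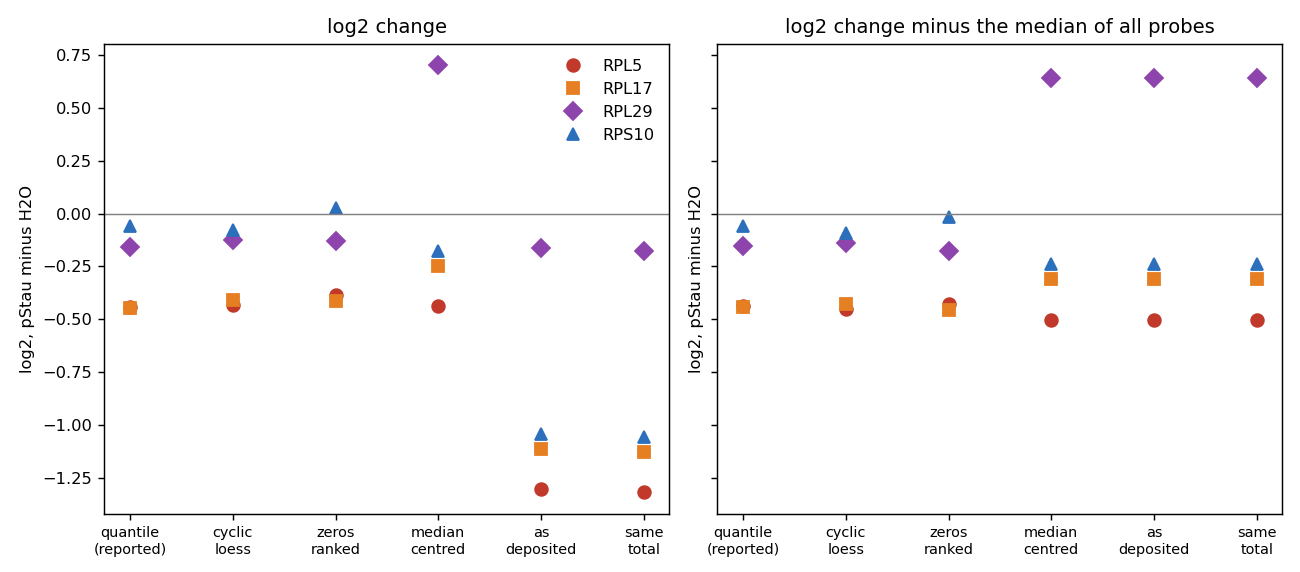
Log2 change, pStau minus H2O, of the 4 genes above 0 on every array under 6 scalings of the arrays (left), and the same change minus the median change of all probes under that scaling (right). RPL5 and RPL17 lie below 0 in all 12 positions, and RPS10 is above 0 in the left panel with zeros ranked, at 0.029. As deposited, same total and median centred differ only by a constant per array. Their positions in the right panel are therefore identical for each gene, as at 0.64 for RPL29, and are 1 result shown 3 times.

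The scaling of the arrays moved all 4 genes, as the plot of scalings shows. As deposited the median change of all probes was -0.80 on the log2 scale. There RPL5 was at -1.31, RPL17 at -1.12 and RPS10 at -1.04, and all 3 passed (limma adjusted p = 0.00582, 0.00385 and 0.0278, n = 6 per group), while RPL29 was at -0.16 (adjusted p = 0.468). Of all probes, 46.7% were called lower in pStau as deposited. With consecutive arrays averaged as well, the adjusted p of RPL5, RPL17 and RPS10 was 0.134, 0.133 and 0.190 in limma (n = 3 per group). Only 4 of all probes tested passed in that averaged fit, so the loss of these calls is not particular to the 3 genes. Relative to that median, RPL5 was at -0.50, RPL17 at -0.31, RPS10 at -0.24 and RPL29 at 0.64. With arrays centred on their median RPL5 (-0.44, adjusted p = 0.0603), RPL17 (-0.25, adjusted p = 0.244) and RPL29 (0.70, adjusted p = 0.0608) did not pass, and the sign of RPL29 was the opposite of that with quantile normalization. With cyclic loess, which corrects for brightness, the 4 genes were at -0.43, -0.41, -0.12 and -0.08 in the order RPL5, RPL17, RPL29 and RPS10, with adjusted p of 0.0528, 0.0519, 0.681 and 0.779 in limma.

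The genes did not follow each other closely from array to array. Over the 12 arrays, Pearson's r of normalized log2 levels was 0.55 between RPL5 and RPL17, 0.56 between RPL17 and RPL29 and -0.28 between RPL17 and RPS10. Taken as deviations from the group means, these were 0.11, 0.61 and -0.53. These values describe 12 arrays in 6 sets of 2, which are not independent, and no test was made of them.

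Among 529 other probes with 1 gene and a value above 0 on every array, those most like RPL17 over the 12 arrays were AT4G39690 (r = 0.91), AT1G31220 (r = 0.90) and AT2G26110 (r = 0.90), with log2 changes of -0.69, -0.92 and -1.04. Likeness over all 12 arrays includes the difference between the groups and so favours genes with a change like that of RPL17, and these changes are a description with no test. As deviations from the group means, r was 0.79, 0.78 and 0.76. Those most like RPL5 were AT2G23890 (r = 0.89), AT3G56130 (r = 0.88) and AT4G15790 (r = 0.87). Their log2 changes were -0.36, -0.53 and -0.64, chosen in the same way, and their r as deviations was 0.86, 0.78 and 0.78. For RPL29 they were CYN, which encodes cyanase (r = 0.90), AT1G12800 (r = 0.88) and AT2G22890 (r = 0.85), with r as deviations of 0.88 to 0.90. For RPS10 they were AT1G54520 (r = 0.83), AT2G37420 (r = 0.78) and AT4G30150 (r = 0.76), with r as deviations of 0.75 to 0.82. For each of these 4 genes, the other 3 were among the candidates and did not come within the first 3.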

How the data were processed

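The authors deposited 1 table of array intensity values for the 12 samples. Its unit, background correction, scaling and centring are not given in the sources used here, and the values were taken as linear. Groups and array numbers come from the titles in the labels. Gene names of probes come from the platform's annotation, which may be outdated, and 690 of 692 single-gene probes matched the RefSeq gene table of TAIR10.1. The names RPL5 to RPS6 come with the choice of genes. The genes, lists and tests were chosen with earlier results of these data known.

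Positive values were quantile normalized. Their 1st percentile after that, 0.0167, served as a floor for zeros and lower values before the log2 step. Probes at 0 everywhere (183) were not tested. limma 3.58.1 in R 4.3.3 (lmFit, eBayes, two-sided, no block) tested the other 3256 probes, with Benjamini-Hochberg adjustment over all of them and a threshold of 0.05. The fit was also run on simulated data in which every array was drawn independently. The arrays of a set resemble each other, so that run is no check of the p-values given here. Ratios within an array were tested by exact permutation over all 924 splits of the 12 arrays, with intervals from inverting that test. Named beside the 6 genes were the measured genes of the lists and, for each gene above 0 on all arrays, the 3 most correlated single-gene probes.

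Same-numbered pStau and H2O arrays deviated together from their group means, with r of 0.31 to 0.54 for the 6 numbers and a minimum of 0.1 required. The numbers may therefore pair the arrays, though the labels state no pairing. The tests reported do not use the pairs, and fits with the replicate block are alternatives. The number of arrays limits the precision. Plots were made in matplotlib 3.10.9 under Python 3.11.15. Promoter motifs, gene positions and sequences were not analysed here.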

Additional observations from a re-analysis of the deposited data

Results flagged for a closer look

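Of 50 sets of 6 values checked for a sample far from the others, 1 was found. Chance gives about 1 in 20 for independent values, which these arrays are not. Values all at the floor, as those of RPL34 in pStau, cannot be flagged. On pStau array 4 the log2 level of RPS6 was -5.40, and the nearest other pStau array stood at -5.72, which left 0.631 of the range between them. The other 4 pStau arrays were at 0 and stood at the floor.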

How the results depend on the processing

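The directions of RPL5, RPL17 and RPL34 were negative under every alternative that gave a value, and their calls were lost under several. Against 1148 probes called in the reported fit, 1808 were called with arrays scaled to the same total, 524 with sets as a random block, 3 with consecutive arrays averaged and 0 with the averaged sets also as a block. Without arrays 3 and 4, or 5 and 6, of both groups 484 and 515 were called, and without arrays 1 and 2 of both groups 1335. Of the 6 genes, 5 were called as deposited and with the same total. With arrays centred on their median, cyclic loess or the random block 1 was called. With both averaged fits, without arrays 3 and 4, and without arrays 5 and 6, 0 were called. Without arrays 1 and 2 the genes called were 3, RPL17, RPL29 and RPL34. As deposited the split over all probes was 183 higher and 1519 lower, with the same total 180 and 1628, and centred on the median 915 and 487, against 536 and 612.

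RPL5 did not pass at -0.44 with arrays centred on their median, at -0.43 with cyclic loess, at -0.38 with zeros ranked, at -0.44 with the random block, both averaged fits and the exact permutation test, or without each set (-0.58, -0.24 and -0.50). RPL17 did not pass at -0.25 with arrays centred on their median, at -0.41 with cyclic loess, at -0.45 with the replicate block, the random block and both averaged fits, or without arrays 3 and 4 (-0.50) or 5 and 6 (-0.21). RPL34 did not pass at -1.83 with both averaged fits and without those sets (-1.44 and -1.58). RPS10 passed at -1.04 as deposited and -1.06 with the same total, and was at 0.029 with zeros ranked and 0.26 without arrays 3 and 4. RPL29 was at 0.70 with arrays centred on their median and passed at -0.40 without arrays 1 and 2. RPS6 passed at -1.58 as deposited and -1.59 with the same total (limma adjusted p = 0.0152 and 0.0128, n = 6 per group). It was at -0.71 centred on the median. In these settings the floor differed between arrays, from 0.00349 to 0.0123 in pStau and 0.0112 to 0.0545 in H2O as deposited. Zeros alone therefore give RPS6 and RPL34 a difference there. With a floor at the 5th percentile RPS6 had no value, and RPL34 and RPS6 were not tested with dim probes or probes with zeros left out.

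The replicate block gave 1279 probes and 2 of the 6 genes, RPL5 and RPL34, so among the 6 it changed the call of RPL17 alone. With 1 array left out 973 to 1250 probes and 2 to 3 of the genes were called, with log2 changes of -0.53 to -0.36 for RPL5, -0.52 to -0.40 for RPL17, -2.20 to -1.66 for RPL34, -0.29 to -0.06 for RPL29, -0.15 to 0.04 for RPS10 and 0.04 to 0.14 for RPS6. With 1 number left out of both groups 743 to 1177 probes (743 without number 5) and 1 to 3 genes (1 without number 6) were called, and RPL5 was at -0.52 to -0.35, RPL17 at -0.53 to -0.35 and RPS10 at -0.20 to 0.087.

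Ratios of RPL5 and RPL17 to RPL29 passed as deposited, at -1.14 and -0.95. RPL29 over RPS10 was at 0.88 as deposited, 0.26 without arrays 5 and 6, and -0.22 to 0.070 with 1 number left out. RPL5 over RPL17 was at -0.19 as deposited, -0.024 with cyclic loess, -0.29 without arrays 5 and 6, and -0.15 to 0.13 with 1 number left out. RPL17 over RPS10 was at 0.10 without arrays 5 and 6 and at -0.76 without arrays 3 and 4 (exact permutation p = 0.0571), and at -0.50 without arrays 1 and 2. With the exact sign-flip test over replicate numbers as the block, 0 of the 6 pairs passed (lowest adjusted p = 0.250). With 6 numbers a single pair cannot pass that test after adjustment over 6 pairs, whatever its values, so this decides little. With consecutive arrays averaged, an alternative added after seeing the data, 0 passed and no pair can reach a p under 0.05. As deposited and averaged, also added then, 0 of the pairs and 0 of the 6 genes passed. In that limma fit only 4 of all probes tested passed, so the 0 is not particular to these genes. There RPL5 was at -1.31, RPL17 at -1.12 and RPL34 at -3.53. That value of RPL34 rests on floors that differed between arrays. The causes of these changes were not tested.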
